A study of Mus musculus with 6 samples.

Results

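Steroid and progesterone handling genes are the 10 rows of the count table whose gene identifiers map to *Pgrmc1*, *Pgrmc2*, *Stard3*, *Hsd11b1*, *Hsd17b2*, *Hsd17b6*, *Hsd17b13*, *Srd5a1*, *Akr1c6* and *Cyp17a1*, of 56691 genes in all. They were chosen by name and function, with earlier results of these data known. All 10 passed the minimum of a mean FPKM of 1, as did 10866 genes of the table. FPKM is the number of reads per kilobase of exon and 1000000 counted reads.

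RNA-seq was done on the liver of pregnant mice that were fed a high-fructose diet (HFrD) from mating until late gestation. The KPF group holds 3 hChrebp-KO dams, in which an albumin promoter drives Cre and *Mlxipl*, the gene of the carbohydrate response element binding protein ChREBP, is floxed. The WPF group holds 3 dams labelled WT, which the methods describe as Chrebp flox/flox mice without Cre. Both groups were pregnant and both received HFrD, so the comparison is of genotype under HFrD, and no library on normal chow was analysed here. Albumin-driven Cre acts in hepatocytes, so the other liver cells of KPF dams keep the gene. The study asked how hepatic ChREBP is tied to progesterone in pregnancy.

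Progesterone and the other steroid hormones are made from cholesterol, mainly in the ovary, placenta, adrenal gland and testis. The liver makes little steroid hormone but takes it up, oxidizes or reduces it, and prepares it for excretion, so that hepatic dehydrogenases and reductases set how long a steroid stays active. Membrane components of the progesterone receptor family are small haem-binding proteins of the endoplasmic reticulum that also pair with cytochrome P450 enzymes.

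The libraries held 10694496 to 14496630 counted reads, and the 10 most abundant genes took 31.8% to 46.8% of them. *Mlxipl* was at 182, 709 and 860 CPM (counts per 1000000 reads after TMM scaling) in KPF-1, KPF-2 and KPF-3 and at 974, 1277 and 891 CPM in WPF-2, WPF-3 and WPF-4. The groups did not overlap, but the difference of -0.84 ± 0.53 (log2, SE) did not pass the test (unadjusted edgeR p 0.152, edgeR adjusted p = 0.584). These counts are summed over the whole gene and not over the floxed exon. WPF-4 stood apart from the other WPF libraries: in 12 of 14 ChREBP target genes it lay nearer to the KPF mean than to the mean of the other WPF libraries, and the summed CPM of these genes was 1617 in WPF-4, 13190 in WPF-2, 16650 in WPF-3 and 1057 to 1210 in KPF. In these genes WPF-4 goes against its group label. Whether the label is right was not tested, the label was kept, and every WPF mean below includes this library. Fold changes of the 10 genes are therefore given with and without it, and those of other genes include it unless stated. WPF-4 was singled out for its likeness to KPF in these same data. Leaving it out favours larger differences in genes with that profile, so calls made without it add no support. Summed markers of hepatocytes (8 genes, 1 of them called lower in KPF) were at 91380 to 118500 CPM in KPF and 120000 to 196400 in WPF. *Alb* made up most of this sum (681909 to 1720757 reads per library), and its log2 fold change of -0.56 was not called. Of the 8 genes, 6 had log2 fold changes below 0 and 2 above, *Hnf4a* (0.22) and *Apoa1* (0.10). Summed markers of endothelial and stellate cells (13 genes, 5 called higher and 0 lower) were at 276 to 805 CPM in KPF and 206 to 249 in WPF, while 9.81% of all tested genes were called. *Des* had the largest log2 fold change of these markers (4.37), with 105 to 5495 reads per library. With *Des* the sum was 479, 805 and 276 CPM in KPF-1, KPF-2 and KPF-3, and without it 425, 313 and 266. Its difference thus came mostly from KPF-2, and KPF-3 held little of it. Without *Des* the sum was 195 to 240 CPM in WPF. *Stab2* (-0.41), *Lrat* (-0.35) and *Kdr* (-0.02) had log2 fold changes below 0. Kupffer cell markers (8 genes, 0 called) were at 178 to 239 and 179 to 329 CPM. None of these markers was at 0, and their part in the results on steroid genes was not tested. In bulk liver, fewer cells of a type and less RNA per cell cannot be told apart.

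The start regions of the membrane components are shown because *Pgrmc2* was the only one of the 10 genes called between the groups and *Pgrmc1* is its closest relative. The start region of *Akr1c6* is shown as the contrast in base composition. Each window runs from 250 bases before to 50 after the RefSeq start (GRCm38.p6) and is printed 5′ to 3′ on the gene's strand. Capitals mark CACGTG, the core of the E-box that ChREBP binds in pairs, and TATAAA.
Pgrmc1 (chrX:36597943-36598242, plus strand): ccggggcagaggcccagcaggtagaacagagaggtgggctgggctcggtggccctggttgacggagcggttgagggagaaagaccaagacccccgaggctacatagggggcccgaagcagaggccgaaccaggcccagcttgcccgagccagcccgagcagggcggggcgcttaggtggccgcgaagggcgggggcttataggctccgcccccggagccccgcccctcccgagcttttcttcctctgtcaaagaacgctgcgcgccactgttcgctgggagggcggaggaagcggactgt
Pgrmc2 (chr3:41082997-41083296, minus strand): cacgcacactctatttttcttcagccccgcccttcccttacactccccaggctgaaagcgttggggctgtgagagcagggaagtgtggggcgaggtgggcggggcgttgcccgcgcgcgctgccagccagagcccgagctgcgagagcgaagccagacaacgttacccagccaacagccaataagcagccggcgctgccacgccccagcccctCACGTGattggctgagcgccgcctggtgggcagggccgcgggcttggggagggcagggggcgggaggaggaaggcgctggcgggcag
Akr1c6 (chr13:4434093-4434392, plus strand): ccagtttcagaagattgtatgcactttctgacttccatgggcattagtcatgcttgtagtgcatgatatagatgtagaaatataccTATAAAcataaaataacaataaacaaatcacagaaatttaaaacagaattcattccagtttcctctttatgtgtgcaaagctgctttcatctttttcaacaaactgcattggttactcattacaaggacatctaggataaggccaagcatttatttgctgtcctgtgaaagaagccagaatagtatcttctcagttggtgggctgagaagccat
Windows were found for 8 of the 10 genes, and none was matched for *Cyp17a1* and *Hsd17b2*. On either strand, CACGTG was present in 7.15% of the 32851 windows of the table and, among the 8 genes, in *Pgrmc2*, where it began 37 bases before the start. TATAAA was present in 13.6% of windows and, among the 8 genes, in *Akr1c6*, where it began 164 bases before the start. A perfect pair of CACGTG at the spacing of the carbohydrate response element was in 0 windows of the table. That element allows mismatches in its E-boxes, so this search could not find it and says nothing of its presence. The full palindrome bound by progesterone and glucocorticoid receptors was in 3 windows and in none of these genes. The windows fell into distinct ranges of CpG content. *Pgrmc1*, *Pgrmc2*, *Stard3* and *Srd5a1* held 23 to 25 CpG and 63.0% to 69.3% GC, whereas *Hsd11b1*, *Hsd17b13*, *Hsd17b6* and *Akr1c6* held 0 to 6 CpG and 36.0% to 54.7% GC. The medians of all windows were 7 CpG and 52.7% GC. A match of letters is not a bound site.

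Per exonic length, the genes covered a 49.2-fold range of mean level. *Pgrmc1* was the most abundant at 207 FPKM (range 124 to 306 over the 6 libraries), above 98.5% of tested genes. It was followed by *Hsd11b1* at 143, *Hsd17b6* at 119, *Akr1c6* at 96.0, *Hsd17b2* at 79.1, *Hsd17b13* at 51.3 and *Cyp17a1* at 30.8 FPKM. *Pgrmc2* at 10.9, *Srd5a1* at 5.39 and *Stard3* at 4.20 FPKM were the lowest. Only the neighbours *Pgrmc2* and *Srd5a1* had ranges that did not overlap. Within a library the order was tighter for some neighbours: *Pgrmc1* was above *Hsd11b1*, *Hsd17b2* above *Hsd17b13*, and *Cyp17a1* above *Pgrmc2* in 6 of 6 libraries. *Hsd17b6* exceeded *Akr1c6* in 3 of 6.

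**Figure D1:**
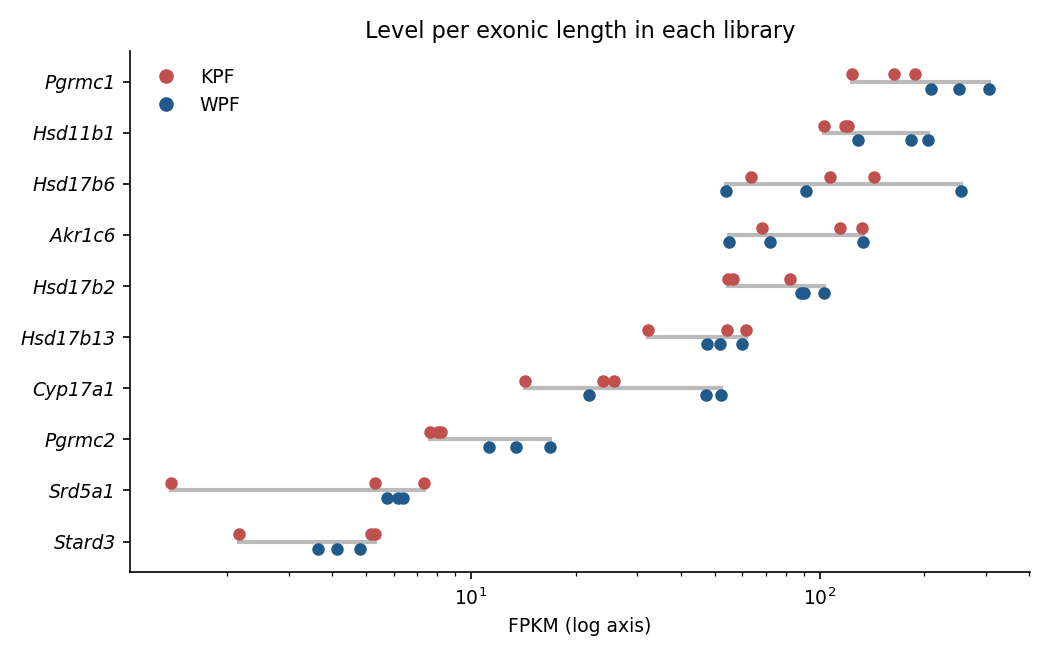
FPKM (log axis) of each gene in each library, ordered by the mean, with KPF in red, WPF in blue and a grey line for the range over the 6 libraries. *Pgrmc1* lies highest at 124 to 306 FPKM, and only the ranges of *Pgrmc2* and *Srd5a1* are separate among neighbours.

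Between KPF and WPF, 1 of the 10 genes was called, where a call needs both a fold of 1.5 or more and an edgeR quasi-likelihood p, before adjustment, below 0.05. The share called among all tested genes was 9.81% (3.98% lower and 5.83% higher in KPF). With Benjamini-Hochberg adjustment over all tested genes, edgeR called 0 of the 10866 genes tested, although 1176 had an unadjusted p under 0.05. After adjustment, DESeq2 called 156 genes and edgeR with no filter on low values called 286, with none of these 10 in either. The groups did not overlap for 2 genes, both lower in KPF, beside 8.15% of tested genes lower and 7.55% higher without overlap. The log2 fold change was below 0 for 7 of 10 genes, with a median of -0.35, against 0.02 over all tested genes. The count of calls was what the share over the whole table gives for 10 genes, to the nearest gene.

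Other settings gave 0 to 5 calls among these genes. There was 1 call with DESeq2 size factors in edgeR (9.8% of all tested genes), 1 with DESeq2 (10.5%) and 1 of 9 genes tested at a mean FPKM of 5 or more (9.67%). There were 2 with limma on log2(FPKM + 1) (7.27%), 2 with log2(FPKM + 0.1) (8.63%), 5 with log2(TPM + 1) (9.97%), 2 with no filter (9.21%), 3 with library totals (10%) and 4 with the replicate number as a block (11.3%). Leaving out 1 library gave 0 calls without KPF-1 (7.12%), 1 without KPF-2 (9.55%) and 2 without KPF-3 (14.9%). It gave 0 calls without WPF-2 (5.9%) or WPF-3 (5.25%) and 3 without WPF-4 (10.7%), which were *Pgrmc2*, *Cyp17a1* and *Hsd11b1*. WPF-4 was singled out after seeing these data, so the calls without it add no support. With KPF-1 and WPF-4 both left out there were 3 (11%), which were *Pgrmc2*, *Cyp17a1* and *Akr1c6*. KPF-1 and WPF-4 have no library of the same number in the other group. They add nothing to the group difference of the block fit, which nearly repeats this setting.

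**Figure D2:**
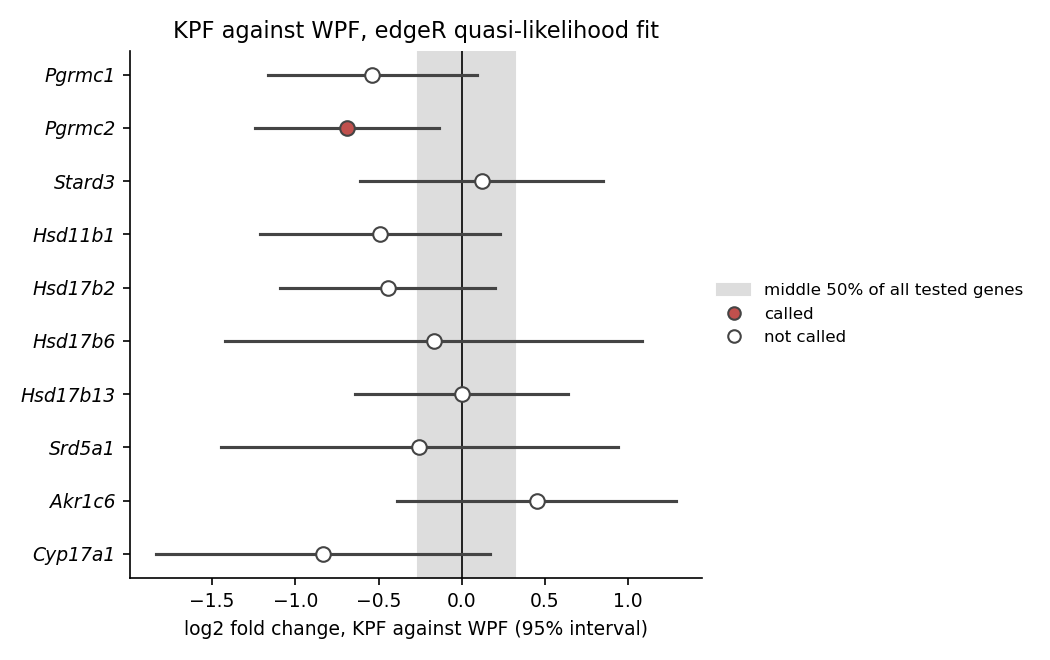
Log2 fold change of KPF against WPF with its 95% interval for each gene, in the edgeR fit; the grey band spans the quartiles of all tested genes (-0.26 to 0.32) and the filled point is the called gene. The interval of *Pgrmc2* (-1.24 to -0.14) lies below 0, and the other 9 intervals include 0.

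*Pgrmc2* (ENSMUSG00000049940; GRCm39 3:41020761-41037481, minus strand) encodes a haem chaperone and membrane progesterone receptor component. It was at 25.5, 27.1 and 29.4 CPM in KPF-1, KPF-2 and KPF-3, and at 49.6, 51.1 and 31.5 CPM in WPF-2, WPF-3 and WPF-4. WPF-4 lay just above the highest KPF library, so the groups were separate by a narrow margin. The means were 27.3 ± 1.97 and 44.1 ± 10.9 CPM (SD, n = 3 each), a fold of 0.621. *Pgrmc2* fell by 0.69 ± 0.24 on the log2 scale (SE, 95% interval -1.24 to -0.14), called at an unadjusted edgeR p of 0.0211 with an edgeR adjusted p of 0.430. A p as small was seen in 4.82% of tested genes. The exact two-sided permutation p was 0.1, the smallest that 3 against 3 libraries can give. Without WPF-4 the log2 fold change of *Pgrmc2* was -0.89 (unadjusted edgeR p 0.00404). The call was lost, at folds close to the full one, without KPF-1 (log2 -0.64, p 0.0578), without WPF-2 (-0.60, p 0.0741) or without WPF-3 (-0.57, p 0.0808) in the same edgeR fit.

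*Pgrmc1* (ENSMUSG00000006373; X:35861859-35869732, plus strand), which binds haem and supports P450 enzymes of sterol metabolism, was at 237, 310 and 393 CPM in the KPF libraries, against 440, 435 and 489 CPM in the WPF libraries. All 3 KPF libraries were below all WPF libraries, and here WPF-4 was the highest library. The means were 313 ± 78.1 and 455 ± 29.9 CPM. The log2 fold change of -0.54 ± 0.27 (SE, 95% interval -1.17 to 0.09) was not called (unadjusted edgeR p 0.0836, edgeR adjusted p = 0.510). The exact permutation p was 0.1. The ratio of *Pgrmc1* to *Pgrmc2* in FPKM was 16.2 to 23.3 in KPF and 14.9 to 27.1 in WPF, so it overlapped between the groups.

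*Stard3* (ENSMUSG00000018167; 11:98249194-98271938, plus strand) encodes a late endosomal protein that moves cholesterol between membranes. It was at 19.0, 19.2 and 8.67 CPM in the KPF libraries, against 14.7, 13.7 and 14.7 CPM in the WPF libraries. KPF-3 was the lowest and the other KPF libraries were the highest, so WPF lay between them. For *Stard3* the log2 fold change was 0.12 ± 0.32 (SE, 95% interval -0.61 to 0.85, edgeR adjusted p = 0.904).

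**Figure D3:**
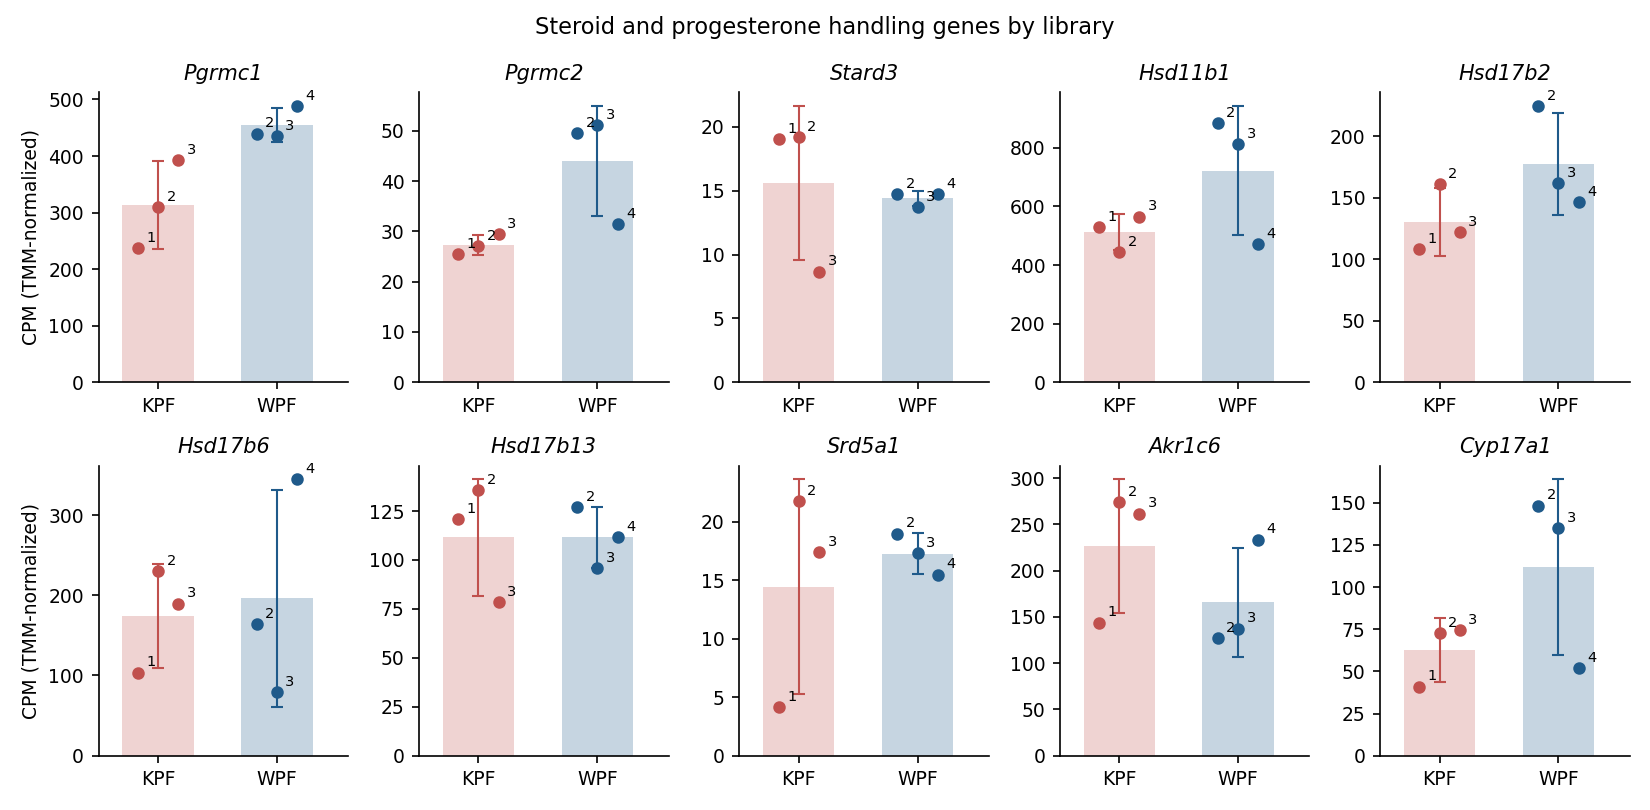
TMM-normalized CPM of each gene in the 3 KPF (red) and 3 WPF (blue) libraries; points carry the replicate number, bars are means and error bars SD. The groups are separate for *Pgrmc1* and *Pgrmc2*, and WPF-4 lies apart from WPF-2 and WPF-3 for *Pgrmc2*, *Hsd11b1*, *Akr1c6* and *Cyp17a1*.

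Among the dehydrogenases, *Hsd11b1* (ENSMUSG00000016194; 1:192903942-192946383, minus strand) regenerates active glucocorticoid from its inert keto form. It was at 528, 445 and 566 CPM in the KPF libraries, against 884, 814 and 470 CPM in the WPF libraries. WPF-2 and WPF-3 were above every KPF library, and WPF-4 fell inside the KPF range. For *Hsd11b1* the log2 fold change was -0.49 ± 0.31 (SE, 95% interval -1.22 to 0.23, edgeR adjusted p = 0.583). Without WPF-4 the log2 fold change of *Hsd11b1* was -0.74, and it was then called (unadjusted edgeR p 0.0339).

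*Hsd17b2* (ENSMUSG00000031844; 8:118428643-118485766, plus strand) oxidizes estradiol and testosterone to weaker steroids. It was at 108, 161 and 122 CPM in the KPF libraries, against 225, 162 and 147 CPM in the WPF libraries. KPF-2 lay just below WPF-3 and above WPF-4, so the groups overlapped. For *Hsd17b2* the log2 fold change was -0.45 ± 0.28 (SE, 95% interval -1.09 to 0.20, edgeR adjusted p = 0.581).

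*Hsd17b6* (ENSMUSG00000025396; 10:127826805-127843480, minus strand), an oxidative enzyme for androgen metabolites and retinol, was at 103, 230 and 190 CPM in KPF. In WPF it was at 164, 79.5 and 345 CPM, a 4.34-fold range within 1 group. WPF held both the lowest and the highest library. For *Hsd17b6* the log2 fold change was -0.17 ± 0.54 (SE, 95% interval -1.42 to 1.08, edgeR adjusted p = 0.921). Its sign rested on single libraries. Without WPF-4 the log2 fold change of *Hsd17b6* was 0.51 (unadjusted edgeR p 0.308), and without KPF-1 it was 0.10 (p 0.871). With the replicate number as a block, the log2 fold change of *Hsd17b6* was 0.87, called higher in KPF (unadjusted edgeR p 0.0494). KPF-1 and WPF-4 are alone in their blocks, so that fit does not use them for the group difference.

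*Hsd17b13* (ENSMUSG00000034528; 5:104103306-104125276, minus strand), a lipid droplet protein of hepatocytes with retinol dehydrogenase activity, was at 121, 136 and 78.3 CPM in the KPF libraries, against 127, 96.0 and 112 CPM in the WPF libraries. Both group means were 112 CPM. The log2 fold change was 0.00 with a 95% interval of -0.64 to 0.64, an interval that includes changes of 1.5-fold in either direction.

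*Srd5a1* (ENSMUSG00000021594; 13:69721568-69759561, minus strand) reduces progesterone, testosterone and glucocorticoids. It was at 4.15, 21.8 and 17.4 CPM in the KPF libraries, against 19.0, 17.3 and 15.5 CPM in the WPF libraries. KPF-1 alone was low, with 43 reads, and the KPF range was 5.25-fold against 1.23-fold in WPF. Counting error of 43 reads is 15.3%, which covers sampling of reads only. For *Srd5a1* the log2 fold change was -0.25 ± 0.51 (SE, 95% interval -1.45 to 0.94, edgeR adjusted p = 0.868), and without KPF-1 it was 0.18. *Srd5a1* shares 37994 bases of its span with *Nsun2* on the opposite strand, which had 2518 reads beside 1186 of *Srd5a1*, and whether counting used the strand is not given in the sources used here.

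*Akr1c6* (ENSMUSG00000021210; 13:4484305-4507876, plus strand), an aldo-keto reductase that forms estradiol and testosterone, was at 144, 274 and 262 CPM in the KPF libraries, against 127, 137 and 233 CPM in the WPF libraries. KPF-2 and KPF-3 were the highest libraries, KPF-1 lay near WPF-3, and WPF-4 was high for its group. For *Akr1c6* the log2 fold change was 0.45 ± 0.36 (SE, 95% interval -0.39 to 1.29, edgeR adjusted p = 0.671). Without WPF-4 it was 0.77 and not called (unadjusted edgeR p 0.0716). With KPF-1 and WPF-4 left out together, a setting chosen after seeing the data, the log2 fold change of *Akr1c6* was 1.02 and it was called (unadjusted edgeR p 0.0102).

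*Akr1c6* lies in a cluster of related genes on chromosome 13, of which 8 were looked at. *Akr1c6* had the highest level of the cluster, at 96.0 FPKM, followed by *Akr1c14* at 38.4, *Akr1c20* at 16.98 and *Akr1c12* at 11.5. *Akr1c18*, which inactivates progesterone, was at 3.50 FPKM, with a log2 fold change of 0.94 (95% interval -0.94 to 2.81). Of the 7 cluster genes tested, 0 were called, beside 9.81% of all tested genes, with log2 fold changes from -0.49 to 0.94. So few genes cannot tell this count from that share. *Akr1c21* had 0 to 3 reads per library. These genes are similar in sequence, so reads may have been split or lost among them.

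**Figure D4:**
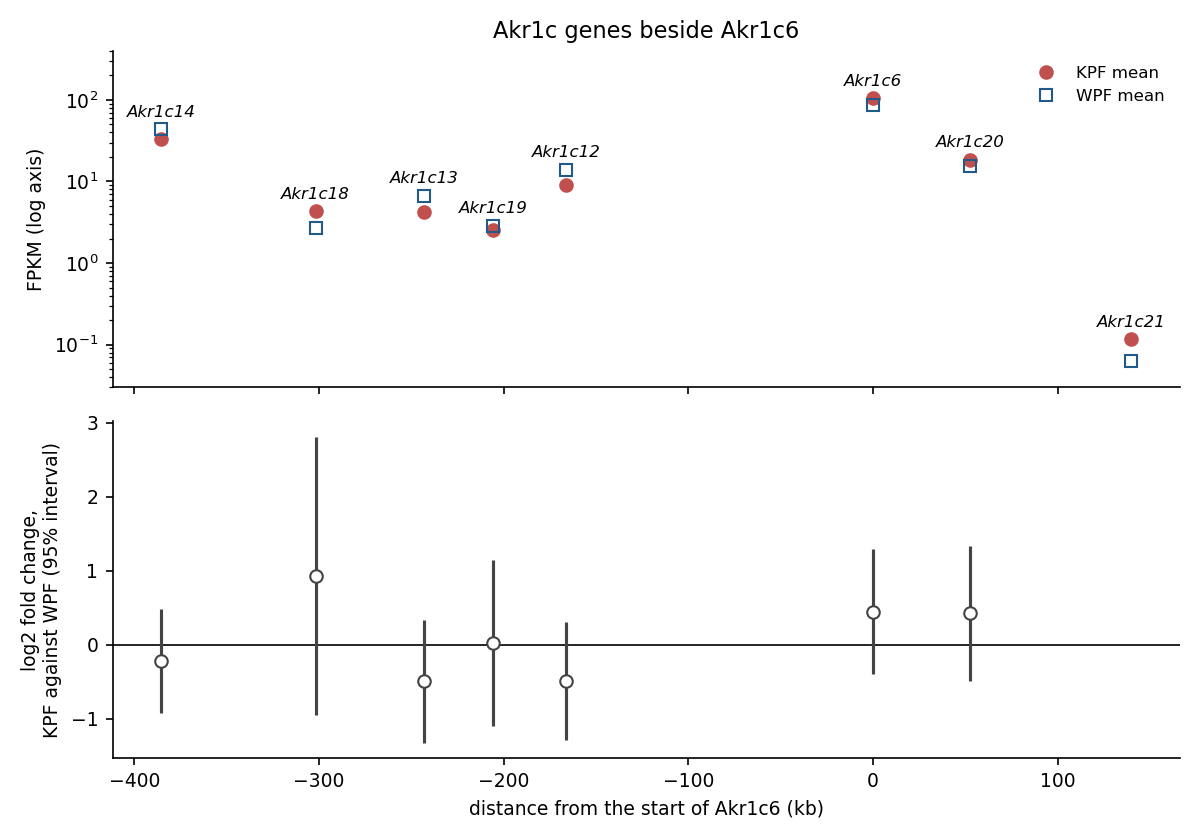
Genes of the cluster by distance (kb) from the start of *Akr1c6*: mean FPKM of KPF and WPF (top, log axis) and log2 fold change with its 95% interval (bottom). *Akr1c6* has the highest level, and all 7 intervals include 0.

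*Cyp17a1* (ENSMUSG00000003555; 19:46655604-46661611, minus strand) encodes the P450 that turns progestogens towards androgens and cortisol-type steroids. It was at 40.9, 72.8 and 74.5 CPM in the KPF libraries, against 148, 135 and 52.0 CPM in the WPF libraries. WPF-2 and WPF-3 were above every KPF library, and WPF-4 was within the KPF range. Its log2 fold change was the farthest from 0 of the 10 genes, at -0.83 ± 0.43 (SE, 95% interval -1.84 to 0.17). It was not called (unadjusted edgeR p 0.0916, edgeR adjusted p = 0.517). Without WPF-4 the log2 fold change of *Cyp17a1* was -1.18, and it was then called (unadjusted edgeR p 0.00887).

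Across libraries the genes followed different patterns. WPF-4 lay nearer to the KPF mean than to the mean of the other WPF libraries for 7 of 10 genes, beside 48.9% of all tested genes. By the same measure WPF-2 and WPF-3 were nearer to KPF for 3 of 10 genes each (41.1% and 38.3% of tested genes). KPF-1 and KPF-2 were nearer to WPF for 5 of 10 each (41.5% and 46.8%), and KPF-3 for 6 (60.1%), so the 7 of WPF-4 was 1 above the next library. Without WPF-4 the log2 fold change was -0.49 for *Pgrmc1*, 0.13 for *Stard3*, -0.575 for *Hsd17b2*, -0.0068 for *Hsd17b13* and -0.34 for *Srd5a1*, and none of these was called. KPF-1 was the lowest library for 5 of 10 genes, beside 23.3% of all tested genes, and KPF-2 was the highest for 4, beside 19.3%. *Pgrmc2*, *Hsd11b1* and *Cyp17a1* were high in WPF-2 and WPF-3 and low in WPF-4 and KPF. *Pgrmc1* was high in all WPF libraries. *Akr1c6* was low in WPF-2, WPF-3 and KPF-1.

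**Figure D5:**
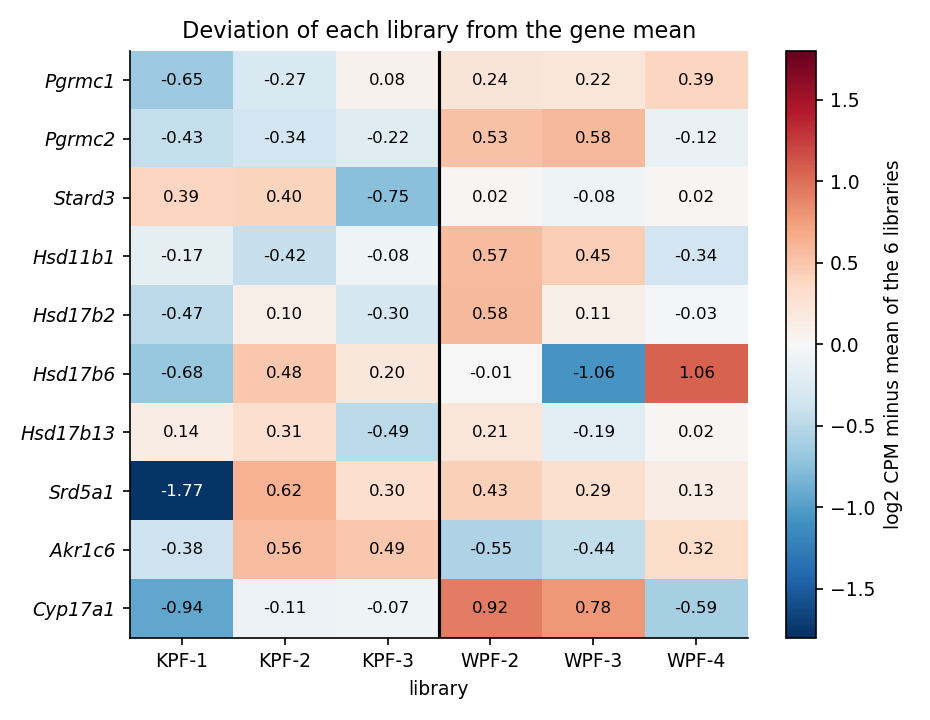
Deviation of each library from the gene's mean over the 6 libraries (log2 CPM), with a line between KPF and WPF. *Cyp17a1* stands at 0.92 and 0.78 in WPF-2 and WPF-3 and at -0.59 in WPF-4, and *Srd5a1* at -1.77 in KPF-1.

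The genes whose log2 CPM followed *Pgrmc2* most closely over the 6 libraries, of 2735 with a mean FPKM of at least 10, were *Me1* (Pearson r = 0.99), *Adipor2* (0.99) and *Wbp2* (0.99). *Me1* encodes malic enzyme, which supplies NADPH for lipid synthesis. It is 1 of the 14 ChREBP target genes summed above and was called lower in KPF (log2 fold change -3.35). Those nearest to *Cyp17a1* were *Shroom1* (0.99), *Agpat2* (0.98) and *Gramd1c* (0.97). *Agpat2* encodes an enzyme of triglyceride synthesis. These are the highest of many correlations over 6 libraries that also carry the group difference, and are given as a description.

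A wider list of 61 other steroid handling genes, which leaves out the 10 genes above, was read from the same fit. Of this list, 60 genes were matched and 35 were tested. It held 5 called genes, 3 higher and 2 lower in KPF, or 14.3% of those tested, and the median log2 fold change was -0.01. Over all tested genes 9.81% were called, 5.83% higher and 3.98% lower. The counts by role below rest on 2 to 9 genes each and are read against the same shares. Among receptors and relatives of the membrane components, 1 of 6 was called. *Esr1*, the estrogen receptor alpha, was at 28.6, 62.0 and 33.8 CPM in the KPF libraries, against 19.5, 28.1 and 24.8 CPM in the WPF libraries, a log2 fold change of 0.78 ± 0.32 (SE, edgeR adjusted p = 0.456). KPF-1 was barely above WPF-3. *Paqr9*, a membrane progestin receptor relative with the highest level in this role (20.8 FPKM), had a log2 fold change of -0.14. *Pgr*, the nuclear progesterone receptor, had 1 read in all 6 libraries together.

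In sterol transfer and import, 2 of 5 were called, both lower. *Tspo*, a mitochondrial outer membrane protein that binds cholesterol, was at 4.44, 6.54 and 4.09 CPM in the KPF libraries, against 12.8, 9.54 and 8.19 CPM in the WPF libraries. The groups were separate, and *Tspo* fell by 1.01 ± 0.31 on the log2 scale (SE, edgeR adjusted p = 0.430). *Stard4*, a cytosolic sterol carrier, was at 21.3, 17.03 and 22.7 CPM in the KPF libraries, against 25.5, 25.9 and 48.3 CPM in the WPF libraries. It fell by 0.71 ± 0.30 (log2, SE, edgeR adjusted p = 0.456), with WPF-4 the highest library, and without WPF-4 the call was lost (unadjusted edgeR p 0.164). *Stard5*, the highest of this role at 20.2 FPKM, had a log2 fold change of -0.27.

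Of the other dehydrogenases, 1 of 9 was called. *Hsd17b8*, a mitochondrial enzyme of fatty acid synthesis that also oxidizes estradiol, was at 37.2, 24.2 and 15.4 CPM in the KPF libraries, against 16.99, 14.03 and 8.90 CPM in the WPF libraries. KPF-3 fell inside the WPF range. The log2 fold change of *Hsd17b8* was 0.95 ± 0.37 (SE, edgeR adjusted p = 0.444). *H6pd*, which supplies NADPH to the enzyme of *Hsd11b1*, had a log2 fold change of -0.02 at 56.3 FPKM.

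None of 5 P450s and electron donors and none of 8 reductases was called. The highest of each, *Cyb5a*, a cytochrome that aids the lyase step of *Cyp17a1*, and *Akr1d1*, which reduces the steroid ring on the way to bile acids, had log2 fold changes of -0.16 and -0.30. In conjugation and carriage, 1 of 2 was called. *Sult2a8*, a bile acid and steroid sulfotransferase of liver, was at 61.7, 340 and 264 CPM in the KPF libraries, against 35.1, 45.0 and 86.9 CPM in the WPF libraries. KPF-1 was below WPF-4, and the log2 fold change of *Sult2a8* was 1.99 ± 0.63 (SE, edgeR adjusted p = 0.430). *Sult2a8* passed adjustment with DESeq2 (adjusted p = 0.0409) and with edgeR on all genes without the filter (adjusted p = 0.0373).

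Each of these 5 calls was lost when certain single libraries were left out, in some cases with the fold nearly kept. *Sult2a8* was at a log2 fold change of 1.75 without WPF-2 (unadjusted edgeR p 0.0536) and 1.86 without WPF-3 (p 0.0507), and *Tspo* at -0.82 without WPF-2 (p 0.0504). *Esr1* was at 0.65 to 0.90 without 1 WPF library (lowest p 0.0576) and at 0.36 without KPF-2 (p 0.173). *Hsd17b8* was at 0.98 without KPF-2 and 0.99 without WPF-3, and at 0.58 without KPF-1 and 0.72 without WPF-4. *Stard4* was at -0.60 to -0.79 without 1 KPF library and at -0.34 without WPF-4. *Serpina6*, the corticosteroid carrier of plasma, was at 3887 FPKM and spread from 2276 to 14580 CPM within KPF, with a log2 fold change of 0.50.

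Markers of steroid-making tissue (adrenal, gonad and placenta) were few in reads. *Cyp11a1*, *Cyp11b1*, *Cyp11b2*, *Cyp19a1*, *Fshr*, *Prl3b1* and *Prl3d1* had 0 reads in all 6 libraries. For each gene this allows an expected total of up to about 3 reads over the 6 libraries together. *Cyp21a1* had 2 reads in all. *Star*, which brings cholesterol to the first step of steroid synthesis in mitochondria, had 18 to 70 reads per library, and *Inha* had 6 to 24.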

How the data were processed

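Liver RNA of 3 KPF and 3 WPF dams was analysed, grouped by sample title. Unnormalized counts and FPKM values of every gene and library were deposited by the authors, unpooled. The submitters' processing notes name cutadapt 1.9.1, HISAT2 2.2.1, HTSeq 0.6.1, DESeq2 and GRCm39. The deposited FPKM values equal counts divided by exonic length and counted reads. Of 56691 gene IDs, 52073 matched a symbol. Counts were tested with edgeR 4.0.16 (R 4.3.3, TMM, quasi-likelihood, two-sided), with Benjamini-Hochberg adjustment over genes whose mean FPKM reached 1. A call needs a fold of 1.5 or more and a p, before adjustment, below 0.05. CPM values are TMM-normalized. The scripts were tested on simulated data. The alternatives used limma 3.58.1 on log2(FPKM + 1), log2(FPKM + 0.1) or log2(TPM + 1), DESeq2 1.42.0, other scalings and filters, the replicate block, and libraries left out. The edgeR p-values set the group difference against the spread between these dams, which the fit moderates over all genes fitted. Counting errors cover read sampling only.

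All 10 genes were named, with the called genes and the most abundant gene of each role of the wider list, the 3 genes most like each of the 2 genes with the largest absolute fold change, and *Mlxipl*; genes of the *Akr1c* cluster and marker lists were added. The genes and lists were chosen with earlier results of these data known. Coordinates of genes are those deposited, and start regions are from RefSeq GRCm38.p6; the builds were not mixed.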

Additional observations from a re-analysis of the deposited data

How the results depend on the processing

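The number of the 10 genes called, 1 in the reported fit, became 3 with scaling by library totals, 2 with limma on log2(FPKM + 1) or log2(FPKM + 0.1), 5 with log2(TPM + 1), 2 with no filter, 4 with the replicate block, 0 to 3 with 1 library left out and 3 with both KPF-1 and WPF-4 left out, which was chosen after seeing the data. It was 0 without KPF-1, WPF-2 or WPF-3, 2 without KPF-3 and 3 without WPF-4, the library singled out after seeing the data. The median of all genes moved from 0.02 to -0.12 with library totals and -0.21 with TPM. The wider list, with 5 of 35 called (14.3%, beside 9.81% of all genes), had 3 with log2(FPKM + 1) (8.57%, beside 7.27%), 2 with log2(FPKM + 0.1) (5.71%, beside 8.63%) and 2 with TPM (5.71%, beside 9.97%). It had 8 of 54 with no filter (14.8%, beside 9.21%) and 3 of 23 at a mean FPKM of at least 5 (beside 9.67%), where the number tested changed and the share hardly did. With 1 library left out it had 2 to 5. It had 2 without KPF-2 (5.71%, beside 9.55%) or WPF-2 (5.71%, beside 5.9%) and 3 without WPF-3 (8.57%, beside 5.25%). There were 4 without KPF-1 (11.4%, beside 7.12%), 5 without KPF-3 (14.3%, beside 14.9%) and 5 without WPF-4 (14.3%, beside 10.7%). The replicate block gave 6 (17.1%, beside 11.3%), as did leaving out both KPF-1 and WPF-4 (17.1%, beside 11%). *Pgrmc2* was below 0 in 16 of 16 alternatives and called in 13, with edgeR, DESeq2 or limma adjusted p from 0.253 to 0.823. *Pgrmc1* (5 of 16 called), *Cyp17a1* (6), *Hsd11b1* (2) and *Hsd17b2* (1) stayed below 0 and *Akr1c6* (2) above 0 in all 16. *Stard3* reversed to -0.058, -0.092 and -0.18 with FPKM + 1, FPKM + 0.1 and TPM, to -0.13 with the replicate block, ranged from -0.061 to 0.41 with 1 library left out, and was -0.029 with both left out. *Hsd17b6* reversed to 0.87 with the replicate block, where it was called, and 0.79 with both left out, and ranged from -0.54 without WPF-3 to 0.51 without WPF-4. *Hsd17b13* was -0.11 with library totals, -0.15 with either FPKM pseudocount, -0.27 with TPM, -0.067 with no filter, -0.10 with the replicate block and -0.060 with both left out, and ranged from -0.17 to 0.20. *Srd5a1* was 0.10 with the replicate block and 0.11 with both left out, and ranged from -0.69 to 0.18. Replicate numbers 2 and 3 occur in both groups, and the labels do not say whether same-numbered libraries were paired. They correlated at 0.075 and -0.056, within the -0.18 to 0.178 of the other pairs between groups, which cannot decide it. The block fit takes its group difference from these same-numbered libraries only. It therefore nearly repeats the setting with KPF-1 and WPF-4 left out. The cause of these shifts was not tested. Counting error is largest for *Srd5a1* in KPF-1, the lowest count among the 10 genes.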
